A study of Mus musculus with 15 samples.

Results

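Late neutrophil precursors and neutrophils use the 10 genes described here for their granules and for alarm signals: Camp, Ngp, Ltf, Lcn2, Mmp8, Mmp9, S100a8, S100a9, Cd177 and Stfa2l1. They were taken by symbol, and all 10 were found among the 23359 gene entries of each of the deposited comparison tables. The RNA came from leukemia stem cells (LSC) and normal counterparts. The leukemia is a murine form of chronic myeloid leukemia in blast crisis, driven by the human oncogenes BCR-ABL and NUP98-HOXA9 expressed together.

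The leukemic groups were LSC of gonadal adipose tissue (AT LSC), peripheral blood (BL LSC), bone marrow (BM LSC) and spleen (SPL LSC), taken 12 days after leukemia cells were transplanted into recipients. All 4 leukemic groups carried both oncogenes. The fifth group (NBM) was the normal counterpart of these cells from normal bone marrow, without transplantation. All mice were female and 3 months old, and each group had 3 RNA-seq libraries, for which the authors deposited 1 pooled value per gene and group. How the LSC were sorted, and which promoter or vector drives the oncogenes, is not in the labels. Nor do the labels tie the libraries to individual mice, and the p-values then measure only the spread between these libraries, which may be technical.

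Neutrophils pack their proteins into granules in the order in which the genes are switched on. Promyelocytes make the primary granules with myeloperoxidase and serine proteases, myelocytes and metamyelocytes make the specific granules with lactoferrin, cathelicidin and lipocalin 2, and the last precursors make the gelatinase granules. The transcription factor C/EBP epsilon is required for the specific granule genes, and other C/EBP factors and PU.1 act on myeloid genes more widely. S100a8 and S100a9 are not granule proteins: they fill the cytosol as a calcium-binding heterodimer, calprotectin, which acts on the receptor Tlr4 once it leaves the cell.

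Several of the genes lie close together in the genome. Coordinates are those of the deposited tables, whose build the submitters give as mm10, written with a first base of 1, and the gene models are those of GENCODE M21. On chromosome 9 the protein-coding genes Camp (chr9:109847377-109849456, minus strand, 4 exons), Ngp (chr9:110419808-110423012, plus strand, 4 exons) and Ltf (chr9:111019292-111042766, plus strand, 17 exons) lay within 1.2 Mb, with 28 other entries between their outer ends. Mmp8 (chr9:7558429-7568486, plus strand, 10 exons) lay elsewhere on the same chromosome. S100a8 (chr3:90669071-90670034, plus strand, 3 exons) and S100a9 (chr3:90692633-90695691, minus strand, 3 exons) lay within 0.0266 Mb of chromosome 3, with 0 other entries contained in that span. The remaining genes were Lcn2 (chr2:32384637-32387739, minus strand, 6 exons), Mmp9 (chr2:164948251-164955846, plus strand, 13 exons), Cd177 (chr7:24743983-24760311, minus strand, 17 exons) and Stfa2l1 (chr16:36156811-36161948, plus strand, 3 exons).

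The sequences before the start sites are shown for 5 genes whose levels the results turn on: Camp and Mmp8, which were high in different tissues, Ngp, the most abundant in AT LSC, and the neighbours S100a8 and S100a9. They are from RefSeq on GRCm38.p6, 5′ to 3′ on the gene's own strand, and hold only the bases before every start that RefSeq or GENCODE annotates, out of a window from 250 bases before to 50 bases after the RefSeq start. Capitals mark matches to the C/EBP core motif TTNNGNAA on either strand. The stretches lie at chr9:109849618-109849706 (Camp, minus strand), chr9:7558179-7558428 (Mmp8, plus strand), chr9:110419558-110419746 (Ngp, plus strand), chr3:90668821-90668977 (S100a8, plus strand) and chr3:90695722-90695971 (S100a9, minus strand).
Camp: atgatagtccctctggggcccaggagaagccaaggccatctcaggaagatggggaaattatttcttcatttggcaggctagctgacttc
Mmp8: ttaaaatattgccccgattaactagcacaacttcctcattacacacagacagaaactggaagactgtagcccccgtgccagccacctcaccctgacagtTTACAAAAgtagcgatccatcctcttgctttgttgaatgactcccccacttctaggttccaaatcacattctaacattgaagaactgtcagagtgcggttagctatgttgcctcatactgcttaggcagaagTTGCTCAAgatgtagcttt
Ngp: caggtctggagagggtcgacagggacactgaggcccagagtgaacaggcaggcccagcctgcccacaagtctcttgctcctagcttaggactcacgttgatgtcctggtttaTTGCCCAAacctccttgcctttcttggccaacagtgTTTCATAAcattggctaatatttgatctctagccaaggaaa
S100a8: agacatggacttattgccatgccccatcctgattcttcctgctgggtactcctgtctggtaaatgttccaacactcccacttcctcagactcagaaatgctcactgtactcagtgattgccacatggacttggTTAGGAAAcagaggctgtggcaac
S100a9: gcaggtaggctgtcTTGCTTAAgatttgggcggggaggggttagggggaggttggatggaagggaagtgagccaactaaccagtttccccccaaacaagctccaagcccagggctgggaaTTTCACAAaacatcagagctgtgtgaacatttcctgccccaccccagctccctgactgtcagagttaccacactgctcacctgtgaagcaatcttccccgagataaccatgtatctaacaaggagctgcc

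Over the whole 300-base windows, the C/EBP core was present in 8 of the 9 genes that had a promoter entry, against 40.7% of all 32851 windows searched in the same way. Ngp held 3 matches, 1 of them in the part not printed, Ltf, Mmp8 and S100a9 held 2 each, Lcn2, S100a8, Cd177 and Stfa2l1 held 1 each, and Camp held 0. The PU.1 core GAGGAAG, searched on both strands, was in 3 of the 9 windows (Lcn2, Mmp8 and S100a8) against 13.6% of all windows, and the AP-1 motif TGANTCA in 0 of 9 against 7.81%. These are matches of letters in a short window and say nothing of binding in these cells. The windows are placed by the RefSeq start. The whole Lcn2 window lies after the start that GENCODE gives (chr2:32388252), and in the Camp window only 89 bases precede every annotated start.

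Estimated counts, the fragments that the authors' software assigned to genes, summed to between 8.96e+06 (SPL LSC) and 1.96e+07 (AT LSC) per group over the 3 libraries. The libraries labelled LSC were checked on 8 stem or progenitor genes (Kit, Ly6a, Cd34, Flt3, Hoxa9, Meis1, Gata2 and Erg): all 8 were above 0.1 FPKM in every group, and Ly6a alone stood at 109 FPKM in AT LSC, 231 in BL LSC and 105 in BM LSC. Of the 7 that were tested against BM LSC, 5 were lower and 0 higher in AT LSC (0 higher at an unadjusted p below 0.05), and 4 lower and 1 higher (Ly6a) in BL LSC, by the authors' deposited tables. Under the 3 other scalings the lower counts were 1, 1 and 2 in AT LSC and 2, 2 and 4 in BL LSC. Kit was not tested against BM LSC. Against NBM all 8 were tested in AT LSC, BL LSC and SPL LSC. Flt3, Kit and Cd34 were called lower and Hoxa9 higher in each of these groups, and Gata2 was also called higher in SPL LSC. In BM LSC against NBM, where Kit was not tested, Flt3 and Ly6a were called lower and Hoxa9 and Gata2 higher. In AT LSC over NBM the authors' deposited log2 folds were -3.25 ± 0.49 (Flt3), -2.66 ± 0.43 (Kit), -2.31 ± 0.50 (Cd34) and 1.77 ± 0.50 (Hoxa9). FPKM scales fragments by gene length and by depth, so levels can be compared between genes. The 6 primary granule genes (Mpo, Elane, Prtn3, Ctsg, Ms4a3 and Prss57) and the 9 mature neutrophil genes that were found were also above 0.1 FPKM in every group.

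The 10 genes together took 1.31% of the estimated counts in AT LSC, 0.427% in NBM, 0.356% in BL LSC, 0.248% in BM LSC and 0.165% in SPL LSC. Of the 10, 8 had their highest level in AT LSC, and Mmp8 and Mmp9 had theirs in BL LSC. The lowest level was in SPL LSC for 7 genes, in BM LSC for Mmp9 and Stfa2l1, and in BL LSC for Camp. These are bulk values, in which fewer cells of a type and less RNA per cell cannot be told apart.

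**Figure D1:**
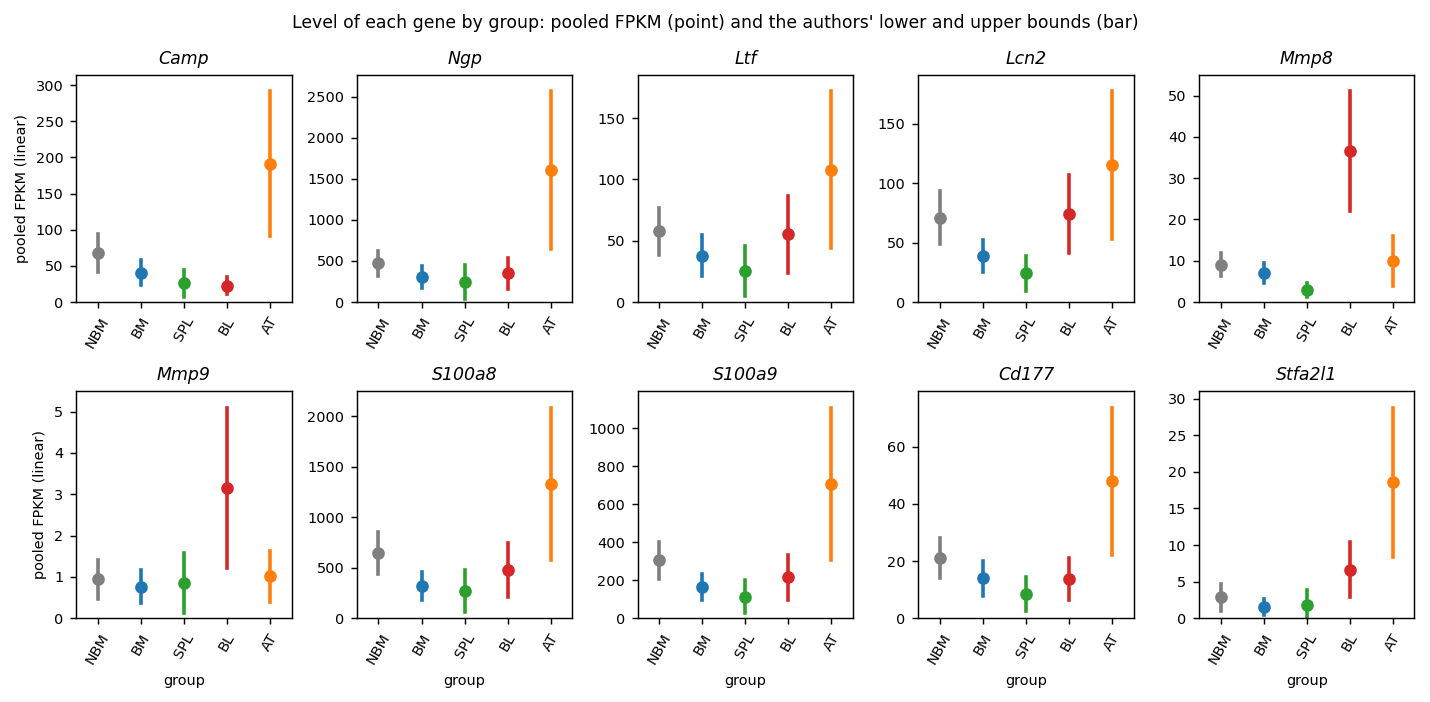
Pooled FPKM (y axis, linear, 1 scale per gene) of each of the 10 genes in NBM, BM LSC, SPL LSC, BL LSC and AT LSC (x axis). Points are the authors' pooled values and bars run from the authors' lower to upper bound, 2 standard deviations either side. AT LSC is highest for 8 genes, and BL LSC for Mmp8 (36.5 FPKM) and Mmp9 (3.16 FPKM).

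Among the proteins of the specific granule, Camp encodes the precursor of the cathelicidin antimicrobial peptide. Camp stood at 67.8 FPKM in NBM, 40.6 in BM LSC, 25.6 in SPL LSC, 22.8 in BL LSC and 192 in AT LSC. AT LSC was the high group, and its bounds of 91.8 to 291 FPKM lay above those of every other leukemic group, the highest of which ended at 57.8 in BM LSC, and met those of NBM (41.6 to 93.9) at their edge. In the authors' deposited table Camp was 8.39-fold higher in AT LSC than in BL LSC (log2 fold 3.07 ± 0.54 SE, Cuffdiff q = 5.33e-07), and 4.73-fold higher than in BM LSC (log2 fold 2.24 ± 0.49, q = 7.81e-05). It was also higher than in NBM (log2 fold 1.50 ± 0.47, q = 0.00999) by the authors' deposited table. Camp was the only gene of the 10 to be called lower in BL LSC than in NBM, at a log2 fold of -1.57 ± 0.48 (q = 0.00785, authors' deposited table). That call was lost once the folds were centred on the median of all tested genes (log2 fold -1.20, q = 0.0602). Below AT LSC, neighbours in the order of levels did not differ beyond their error (q = 0.212 to 0.918 in the authors' deposited table).

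Ngp, neutrophilic granule protein, is a secreted granule protein related to the cystatins and was the most abundant of the 10 by FPKM in AT LSC. Its levels were 474 FPKM in NBM, 301 in BM LSC, 242 in SPL LSC, 348 in BL LSC and 1605 in AT LSC, where it ranked 4 among all genes by FPKM. The bounds in AT LSC, 643 to 2567 FPKM, overlapped with no other group, the nearest being NBM at 322 to 625. The authors' deposited table gave log2 folds in AT LSC of 2.41 ± 0.54 over BM LSC (q = 0.000135), 2.20 ± 0.58 over BL LSC (q = 0.00159) and 1.76 ± 0.49 over NBM (q = 0.00323). No pair among the other 4 groups passed the test for Ngp.

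Ltf, the iron-binding protein lactoferrin, differed less. It stood at 57.6 FPKM in NBM, 37.6 in BM LSC, 25.5 in SPL LSC, 55.2 in BL LSC and 108 in AT LSC. The bounds in AT LSC (44.3 to 172 FPKM) overlapped with those of all 4 other groups. The authors' deposited table called Ltf higher in AT LSC than in BM LSC (log2 fold 1.53 ± 0.53, q = 0.0247) and SPL LSC (2.08 ± 0.72, q = 0.0218). Against BL LSC the fold was 0.97 ± 0.59 (q = 0.267) and against NBM 0.91 ± 0.49 (q = 0.189) in the authors' deposited table, which did not pass.

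Lcn2, lipocalin 2, withholds iron from bacteria by binding their siderophores. Its levels were 71.0 FPKM in NBM, 38.6 in BM LSC, 24.1 in SPL LSC, 74.4 in BL LSC and 115 in AT LSC. NBM, BL LSC and AT LSC had the higher levels, with overlapping bounds. AT LSC (53.4 to 177) lay just clear of BM LSC (25.2 to 52.0) and of SPL LSC (9.39 to 38.8). The bounds of NBM (48.7 to 93.2) and BL LSC (41.4 to 107) overlapped with those of BM LSC. BL LSC over BM LSC did not pass (log2 fold 0.95 ± 0.41, q = 0.0807, authors' deposited table). In the authors' deposited table Lcn2 was higher in AT LSC than in BM LSC (log2 fold 1.58 ± 0.46, q = 0.00537), higher in BL LSC than in SPL LSC (1.63 ± 0.54, q = 0.0178), and lower than in NBM in SPL LSC (-1.56 ± 0.49, q = 0.0117). The lower level in BM LSC than in NBM had a log2 fold of -0.88 ± 0.34 (q = 0.0451, authors' deposited table), and did not pass after centring (q = 0.0610).

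The metalloproteinases followed another order. Mmp8, the collagenase of neutrophil granules, stood at 9.05 FPKM in NBM, 7.05 in BM LSC, 2.94 in SPL LSC, 36.5 in BL LSC and 9.91 in AT LSC. BL LSC was the high group, with bounds of 21.95 to 51.0 FPKM that overlapped with no other group, and SPL LSC the low group. The authors' deposited table called Mmp8 higher in BL LSC than in SPL LSC (12.4-fold, log2 fold 3.64 ± 0.51, q = 1.54e-10), BM LSC (log2 fold 2.37 ± 0.37, q = 1.64e-08), NBM (2.01 ± 0.37, q = 1.44e-06) and AT LSC (1.88 ± 0.52, q = 0.00319). In SPL LSC it was lower than in NBM, at a log2 fold of -1.62 ± 0.48 (q = 0.00630, authors' deposited table), lower than in BM LSC (-1.26 ± 0.49, q = 0.0468) and lower than in AT LSC (log2 fold of AT LSC over SPL LSC 1.75 ± 0.61, q = 0.0237). AT LSC did not differ beyond the error from NBM (log2 fold 0.13 ± 0.49, q = 0.914) or BM LSC (0.49 ± 0.50, q = 0.572) in the authors' deposited table.

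Mmp9, gelatinase B, was the least abundant of the 10 in every group. Its levels were 0.939 FPKM in NBM, 0.764 in BM LSC, 0.849 in SPL LSC, 3.16 in BL LSC and 1.02 in AT LSC. BL LSC was high and the other 4 groups lay close together, although the bounds in BL LSC (1.21 to 5.10 FPKM) cleared only those of BM LSC (0.358 to 1.17). The authors' deposited table called Mmp9 higher in BL LSC than in BM LSC (log2 fold 2.05 ± 0.59, q = 0.00439) and NBM (1.75 ± 0.57, q = 0.0150). It was called lower in AT LSC than in BL LSC, at a log2 fold of -1.64 ± 0.62 (q = 0.0432, authors' deposited table), a call that each of the 3 other scalings tried took away (q = 0.0643 to 0.104). Against SPL LSC the BL LSC level did not pass (log2 fold 1.89 ± 0.75, q = 0.0549, authors' deposited table).

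The alarmin S100a8 stood at 645 FPKM in NBM, 320 in BM LSC, 272 in SPL LSC, 480.1 in BL LSC and 1331 in AT LSC, where it ranked 6 among all genes. Its partner S100a9 stood at 304 FPKM in NBM, 164 in BM LSC, 114 in SPL LSC, 215 in BL LSC and 707 in AT LSC. Both had the same order of groups, AT LSC, NBM, BL LSC, BM LSC and SPL LSC from high to low, and in both the bounds of AT LSC cleared those of BM LSC and SPL LSC and overlapped with those of NBM and BL LSC. The authors' deposited table gave S100a8 a log2 fold of 2.06 ± 0.51 in AT LSC over BM LSC (q = 0.000822) and 1.47 ± 0.57 over BL LSC (q = 0.0489). For S100a9 the same comparisons gave 2.10 ± 0.51 (q = 0.000524) and 1.72 ± 0.57 (q = 0.0173) in the authors' deposited table. Both calls over BL LSC ended when q-values were adjusted within that comparison alone (q = 0.160 and 0.0716). Against NBM, S100a9 passed in AT LSC (1.22 ± 0.47, q = 0.0482) and S100a8 did not (1.05 ± 0.47, q = 0.102) in the authors' deposited table. Whether the 2 genes differ there was not tested. In BM LSC the authors' deposited table called S100a8 lower than in NBM (log2 fold -1.01 ± 0.39, q = 0.0466), and this did not pass after centring (q = 0.0613).

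Cd177 is a surface glycoprotein of neutrophils that binds Pecam1 on endothelium, and its human form holds proteinase 3 at the membrane. Its levels were 21.0 FPKM in NBM, 13.96 in BM LSC, 8.51 in SPL LSC, 13.8 in BL LSC and 47.9 in AT LSC. AT LSC was high, with bounds of 22.1 to 73.7 FPKM above those of the other 3 leukemic groups and overlapping with NBM, whose upper bound was 28.0. The authors' deposited table gave log2 folds in AT LSC of 1.78 ± 0.50 over BM LSC (q = 0.00375), 1.79 ± 0.54 over BL LSC (q = 0.00784) and 1.19 ± 0.46 over NBM (q = 0.0446). BL LSC and BM LSC were at nearly the same level, with a log2 fold of -0.01 ± 0.50 (95% interval -0.99 to 0.96, q = 0.995) in the authors' deposited table.

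Stfa2l1 is a member of the stefin A family of cysteine protease inhibitors. It stood at 2.84 FPKM in NBM, 1.54 in BM LSC, 1.87 in SPL LSC, 6.65 in BL LSC and 18.6 in AT LSC, on 10.1 estimated counts in SPL LSC and 351 in AT LSC, so the low groups rest on few fragments. AT LSC was high and its bounds (8.32 to 28.8 FPKM) overlapped only with those of BL LSC (2.83 to 10.5). In the authors' deposited table Stfa2l1 had the largest fold of the 10 in AT LSC over BM LSC (12.1-fold, log2 fold 3.59 ± 0.66, q = 2.20e-06) and over NBM (2.71 ± 0.62, q = 0.000219). It was also called higher in BL LSC than in BM LSC, at a log2 fold of 2.11 ± 0.67 (q = 0.0122, authors' deposited table).

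Over the 10 comparisons, all 100 tests of the 10 genes were run by the authors and 43 passed q below 0.05, 8 of them with q of 0.04 or more. The counts below are from the authors' deposited table, and beside them stands the share of all tested genes that passed in the same direction. In AT LSC against BM LSC, 8 of the 10 were higher (7.24% of all tested genes) and 0 lower (15.5%). Against SPL LSC, 9 were higher in AT LSC (7.2%) and 0 lower (17.9%). At an unadjusted p below 0.05 the lower counts in both comparisons were also 0. The genes not called higher were Mmp8 and Mmp9 against BM LSC and Mmp9 against SPL LSC. Against BL LSC, 6 were higher in AT LSC (4.01%), Mmp8 and Mmp9 were the 2 lower (2.51%), and Ltf and Lcn2 did not pass. With q-values adjusted within that comparison alone, 3 were higher and 1 lower, and the calls on S100a8, S100a9, Stfa2l1 and Mmp9 ended. Against NBM, 5 were higher in AT LSC (7.94%; Camp, Ngp, S100a9, Cd177 and Stfa2l1) and 0 lower (15.5%), with 0 lower at an unadjusted p below 0.05.

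Fewer of the genes differed between the other groups. In BL LSC against BM LSC, the 3 called higher (10.5% of all tested genes) were Mmp8, Mmp9 and Stfa2l1, and 0 were lower (22.8%), as also at an unadjusted Cuffdiff p below 0.05. In BL LSC against SPL LSC, Mmp8 and Lcn2 were the 2 called higher (10.2%) and 0 were lower (23.1%), also 0 without adjustment of the authors' p. In BL LSC against NBM, Mmp8 and Mmp9 were higher (11.5%) and Camp lower (22.9%). In BM LSC against NBM, 0 were higher (8.17%) and Lcn2 and S100a8 were lower (7.85%), with 0 higher and 3 lower at an unadjusted p below 0.05. In SPL LSC against NBM, 0 were higher (6.37%) and Lcn2 and Mmp8 were lower (6.19%), with 0 higher and 6 lower at an unadjusted p below 0.05. In SPL LSC against BM LSC, 0 were higher (1.19%) and Mmp8 was lower (1.5%), with the same counts without adjustment.

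The direction of the folds over all genes depended on the scaling. The median log2 fold of all tested genes in the authors' deposited tables was -0.48 in AT LSC over BM LSC, -0.52 over SPL LSC, -0.46 over NBM and -0.11 over BL LSC, and -0.36 to -0.40 in BL LSC over NBM, BM LSC and SPL LSC. The medians of the 10 genes were 1.92, 2.39, 1.12 and 1.48 in the same 4 comparisons of AT LSC, and -0.24, 0.57 and 1.01 in those of BL LSC, in the authors' deposited tables. In SPL LSC over BM LSC the 10 genes had a median of -0.54 against 0.12 for all tested genes, in BM LSC over NBM -0.70 against -0.03, and in SPL LSC over NBM -1.27 against 0.11, again from the authors' deposited tables. After centring on the median of tested genes, the share of all calls that were higher went from 31.8% to 69.8% in AT LSC against BM LSC, from 28.7% to 62.3% against SPL LSC, from 61.5% to 72.7% against BL LSC and from 33.9% to 65.3% against NBM. In the comparisons of BL LSC that share went from 31.6% to 53.6% (BM LSC), from 30.7% to 50.7% (SPL LSC) and from 33.4% to 54.3% (NBM), and in SPL LSC against BM LSC from 44.1% to 32.3%. Total count scaling moved it from 50.7% to 36.1% in SPL LSC against NBM. No call among the 10 genes turned to the opposite direction under any of the 3 other scalings.

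**Figure D2:**
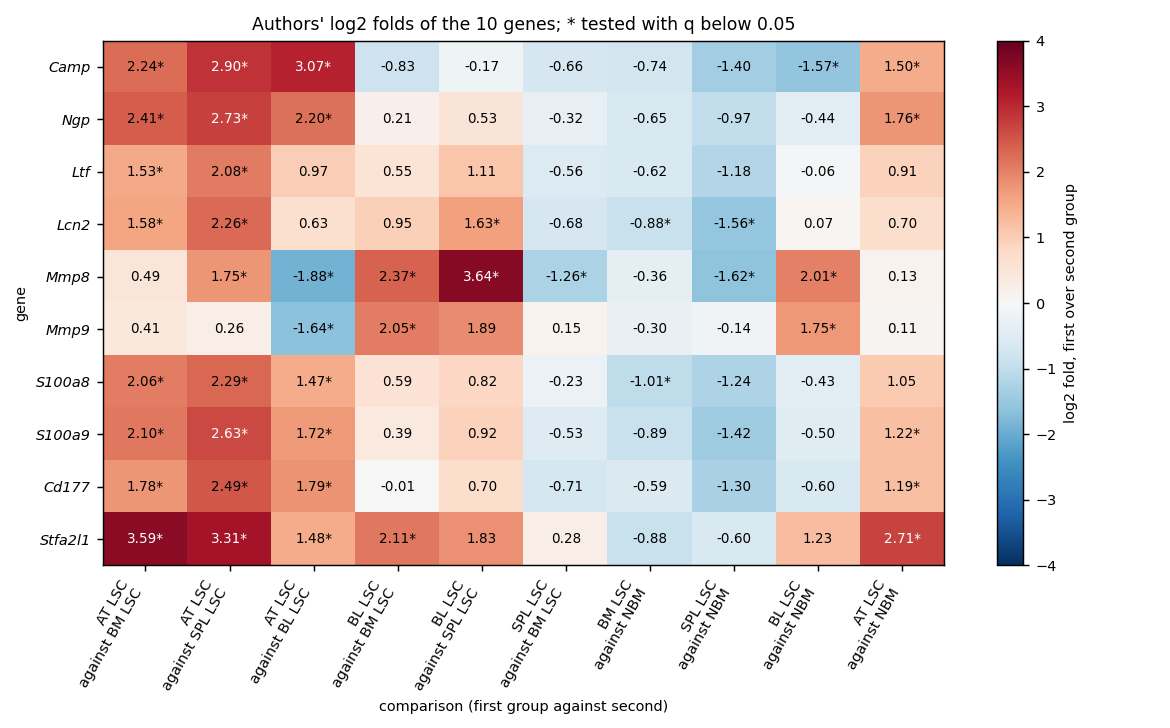
The authors' log2 folds (number and colour, first group over second) of the 10 genes (rows) in the 10 comparisons (columns), with an asterisk where the authors' q was below 0.05. The columns of AT LSC against BM LSC and SPL LSC hold positive folds in all 10 rows, and Mmp8 and Mmp9 are the rows with negative folds in AT LSC against BL LSC.

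Ratios of pooled FPKM within a group remove any scaling between groups. S100a8 over S100a9 stayed between 1.88 (AT LSC) and 2.39 (SPL LSC), and the largest ratio was 1.27 times the smallest. Ltf over Lcn2 ran from 0.741 in BL LSC to 1.06 in SPL LSC. Mmp8 over Camp ran from 0.0517 in AT LSC through 0.115 in SPL LSC, 0.133 in NBM and 0.174 in BM LSC to 1.60 in BL LSC, a 30.9-fold range. BL LSC also had the highest ratio to Camp for Ngp (15.3, against 6.99 to 9.44 elsewhere), Lcn2 (3.26, against 0.602 to 1.05) and Ltf (2.42, against 0.564 to 0.994). The proportion within the alarmin pair thus varied less over the 5 pools than those of the granule genes to Camp. No per-library values were used here, so these ratios carry no error.

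**Figure D3:**
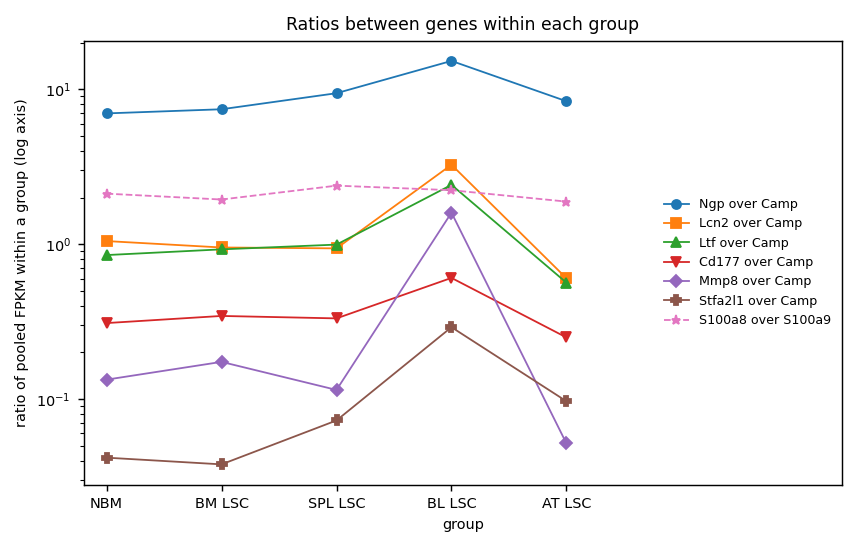
Ratio of pooled FPKM between pairs of genes within each group (y axis, log scale) in NBM, BM LSC, SPL LSC, BL LSC and AT LSC (x axis). The line of S100a8 over S100a9 stays between 1.88 and 2.39, while Mmp8 over Camp runs from 0.0517 in AT LSC to 1.60 in BL LSC.

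The likeness of 2 patterns was measured as the root mean square distance between centred log2(FPKM + 1) values over the 5 groups. S100a8 and S100a9 were nearest to each other (distance 0.124), as were Ltf and Lcn2 (0.181). Cd177 and Ngp were nearest to S100a9 (0.157 and 0.212), Camp (0.386) and Stfa2l1 (0.517) to Ngp, and Mmp8 and Mmp9 to each other at a wider distance (0.671). Of 8897 other genes at 1 FPKM or more in at least 1 group, 0 lay nearer the 10 genes' median pattern than S100a8 did. At a pseudocount of 0.1 in place of 1 that count was 1. The median pattern was taken over the 10 genes themselves and is drawn towards them, so such counts only describe. For S100a9, Ltf, Lcn2, Cd177 and Ngp, 1 to 8 lay nearer to it than the gene itself. For the rest of the 10 many did, namely 227 for Stfa2l1, 356 for Camp, 2741 for Mmp9 and 4978 for Mmp8. Other genes that lay closer to a gene than its named partner were not counted. How particular each pairing is was therefore not tested. Measured from the median pattern of the 10, S100a8 was the closest (0.118) and Mmp8 the farthest (1.04).

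Among the same 8897 genes, the 8 nearest to that median pattern were Plk2, Dgat1, Icam1, Nlrp3, Nfkbiz, Csta, Rnu12 and Bcl2l11. Plk2, a polo-like kinase, stood at 4.40 FPKM in NBM, 2.62 in BM LSC, 2.07 in SPL LSC, 4.02 in BL LSC and 12.0 in AT LSC (distance 0.121). Icam1, an adhesion molecule, went from 4.94 FPKM in SPL LSC to 25.1 in AT LSC. Nlrp3, the inflammasome sensor, went from 0.10 FPKM in SPL LSC to 2.73 in AT LSC, and Csta belongs to the stefin A family. With a pseudocount of 0.1 in place of 1, only 3 of the 8 (Icam1, Nfkbiz and Plk2) were again among the nearest 8. With 5 points per gene, a near pattern is a description.

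**Figure D4:**
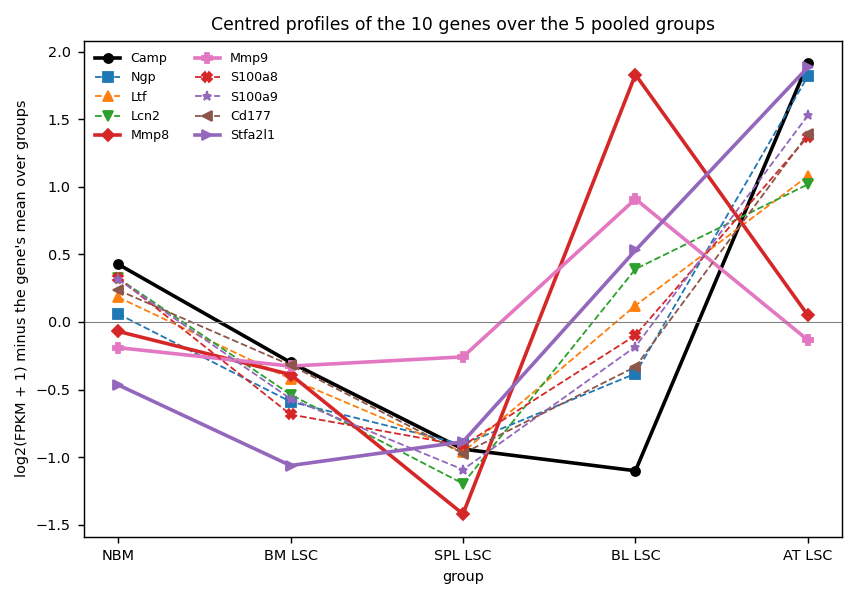
Centred pattern of the 10 genes: log2(FPKM + 1) minus the gene's own mean over the 5 groups (y axis) against group (x axis), 1 line per gene. The lines of most genes fall from NBM to SPL LSC and peak in AT LSC, Mmp8 and Mmp9 peak in BL LSC, and Camp has its lowest point in BL LSC.

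The other genes of the granule program were read from lists that were chosen with earlier results of these data known. Of 19 other genes of specific and gelatinase granules, 8 were called higher and 0 lower in AT LSC against BM LSC in the authors' deposited table (0 lower also at an unadjusted p below 0.05), with a median log2 fold of 1.18. In BL LSC against BM LSC, 13 were higher and 0 lower (0 lower also without adjustment) by the authors' deposited table, and the median was 1.31. The summed level of the list was 835 FPKM in NBM, 701 in BM LSC, 530.3 in SPL LSC, 2277 in BL LSC and 1628 in AT LSC, so its high groups were BL LSC and AT LSC. Cybb, the catalytic subunit of the NADPH oxidase, stood at 23.2 FPKM in NBM, 8.90 in BM LSC, 10.1 in SPL LSC, 64.9 in BL LSC and 47.9 in AT LSC. Slpi, a secreted inhibitor of leukocyte proteases, stood at 67.0 FPKM in BM LSC, 409 in BL LSC and 230.0 in AT LSC. The haptoglobin gene Hp was at 47.8 FPKM in BM LSC and 194 in AT LSC, a log2 fold of 2.02 ± 0.46 (q = 0.000204) in the authors' deposited table. Between AT LSC and BL LSC, 1 of the 19 was called in the authors' deposited table: Lrg1, a secreted glycoprotein, was higher in AT LSC (6.55 against 1.39 FPKM, log2 fold 2.23 ± 0.67, q = 0.00677), and 0 were lower (1 at an unadjusted p below 0.05).

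The primary granule genes made earlier in maturation had their lowest level in BL LSC. Their summed level was 1069 FPKM in NBM, 315 in BM LSC, 339 in SPL LSC, 45.9 in BL LSC and 362 in AT LSC. Mpo, myeloperoxidase, stood at 524 FPKM in NBM, 107 in BM LSC, 120.4 in SPL LSC, 6.23 in BL LSC and 113 in AT LSC. By the authors' deposited Cuffdiff table, 3 of the 6 were lower and 0 higher in BL LSC than in BM LSC (0 higher without adjustment), namely Mpo (log2 fold -4.10 ± 0.40), Ms4a3, a membrane protein of granulocyte precursors (-2.75 ± 0.37, q = 1.17e-11), and Ctsg, cathepsin G (-1.03 ± 0.36, q = 0.0237). The call on Ctsg rests on the scaling: 2 of the 6 were lower after centring. In AT LSC against BM LSC, 0 of the 6 were called in either direction in the authors' deposited Cuffdiff table, and 0 at an unadjusted p below 0.05. In AT LSC against BL LSC, 2 of 6 were called higher in the authors' deposited table, Mpo (log2 fold 4.19 ± 0.57, q = 1.77e-11) and Ms4a3 (2.48 ± 0.49, q = 1.06e-05). Elane, neutrophil elastase, did not pass at 128 against 6.25 FPKM, with an error of 3.11 on a log2 fold of 4.35 (q = 0.368, authors' deposited table).

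Most markers of mature neutrophils were called higher in both AT LSC and BL LSC than in BM LSC. Of 9 found, 5 were called higher and 0 lower in AT LSC against BM LSC and 7 higher and 0 lower in BL LSC against BM LSC, in the authors' deposited tables and with 0 lower also at an unadjusted p below 0.05. Their summed level was 173 FPKM in NBM, 64.0 in BM LSC, 61.3 in SPL LSC, 255 in BL LSC and 145 in AT LSC. Trem1, an activating receptor of myeloid cells, stood at 3.85 FPKM in BM LSC, 39.0 in BL LSC and 28.1 in AT LSC. Between AT LSC and BL LSC the authors' deposited table called 1 of 9 higher, G0s2, a lipase inhibitor (8.26 against 2.32 FPKM, log2 fold 1.83 ± 0.54, q = 0.00548), and 0 lower (1 at an unadjusted p below 0.05). Cxcr2, the chemokine receptor of mature neutrophils, was at 3.43 FPKM in AT LSC and 7.70 in BL LSC (q = 0.0863, authors' deposited table).

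Of the granulocyte transcription factors, Cebpe, which encodes C/EBP epsilon, had its high level in AT LSC. Cebpe stood at 0.701 FPKM in NBM, 0.870 in BM LSC, 0.550 in SPL LSC, 0.447 in BL LSC and 3.21 in AT LSC. AT LSC was the high group, and BL LSC did not differ beyond the error from SPL LSC, BM LSC or NBM (q = 0.854, 0.251 and 0.495, authors' deposited tables). The authors' deposited table gave Cebpe a log2 fold of 1.88 ± 0.54 in AT LSC over BM LSC (q = 0.00472) and 2.84 ± 0.59 over BL LSC (q = 3.09e-05). Cebpb, another C/EBP factor, stood at 0.316 FPKM in NBM, 0.368 in BM LSC, 0.356 in SPL LSC, 2.12 in BL LSC and 1.91 in AT LSC, high in both of the latter. By the authors' deposited table, 3 of the 8 tested factors were higher (Cebpb, Cebpe and Klf5) and 1 lower (Gfi1, a repressor of myeloid genes, log2 fold -1.43 ± 0.50, q = 0.0261) in AT LSC than in BM LSC, and the call on Gfi1 was lost under each of the 3 other scalings.

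**Figure D5:**
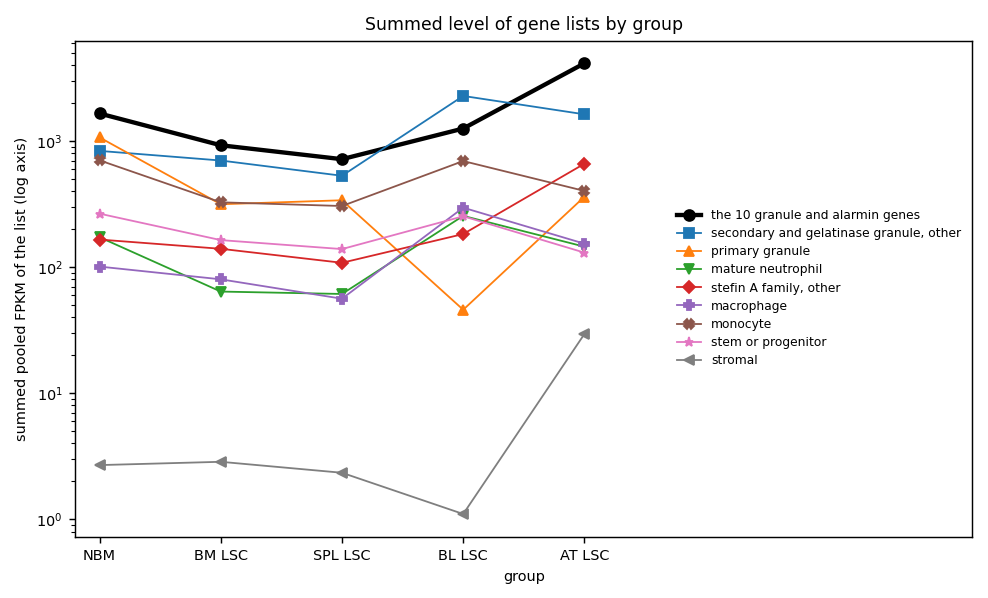
Summed pooled FPKM (y axis, log scale) of the 10 genes and of 8 gene lists in NBM, BM LSC, SPL LSC, BL LSC and AT LSC (x axis). The 10 genes and the other stefins are highest in AT LSC, the other specific and gelatinase granule genes in BL LSC (2277 FPKM), and the primary granule genes have their lowest point in BL LSC (45.9 FPKM).

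Most other stefin genes were, like Stfa2l1, called higher in AT LSC. Of 10 other stefin genes, 9 were called higher and 0 lower (0 also at an unadjusted p below 0.05) in AT LSC against each of BM LSC, SPL LSC, BL LSC and NBM in the authors' deposited tables, with median log2 folds of 2.71, 3.23, 2.19 and 2.19. Their summed level was 661 FPKM in AT LSC and 108 to 183 in the other groups. Csta stood at 1.29 FPKM in NBM, 0.996 in BM LSC, 0.683 in SPL LSC, 1.49 in BL LSC and 6.88 in AT LSC. In BL LSC against BM LSC the authors' deposited table called 1 of 10 higher (Stfa2, log2 fold 1.59 ± 0.62, q = 0.0491) and 0 lower (0 without adjustment). The gene not called in the 4 comparisons of AT LSC was Cstb, stefin B, which lies outside the stefin A group. Many of the stefin A genes are near-identical copies, and how the authors' counting divided reads among them, and between them and Stfa2l1, is not given in the sources used here, so the members of the family are not independent measurements.

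The other S100 genes were read from a list of 14, which also holds S100pbp, a gene outside the S100 family. The summed level of the list was 303 FPKM in NBM, 430 in BM LSC, 332 in SPL LSC, 1217 in BL LSC and 754 in AT LSC. Most of it came from S100a6 (115 FPKM in BM LSC, 336 in BL LSC and 178 in AT LSC), S100a10 (75.4, 286 and 153) and S100a11 (182, 491 and 351). In BL LSC against BM LSC, 4 of the 9 tested were called higher in the authors' deposited table (S100a4, S100a6, S100a10 and S100a11) and 0 lower (0 without adjustment). In AT LSC against BM LSC, 2 of 10 tested were called higher in the authors' deposited table, S100a4 (log2 fold 1.58 ± 0.45, q = 0.00442) and S100a16, which is listed at 0 in BM LSC and at 1.01 FPKM in AT LSC. Between AT LSC and BL LSC, S100a16 was the only one of 10 tested to be called, higher in AT LSC, and 0 were lower (1 at an unadjusted p below 0.05) in the authors' deposited table.

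The receptors and partners of the 10 gene products were measured in the same pools. Tlr4, a receptor of calprotectin and of bacterial lipopolysaccharide, and its co-receptor Cd14 had their highest levels in AT LSC and BL LSC. Cd14 stood at 21.9 FPKM in NBM, 8.81 in BM LSC, 9.01 in SPL LSC, 191 in BL LSC and 211 in AT LSC, and Tlr4 at 2.65, 1.03, 0.564, 3.03 and 3.69 FPKM in the same order. The authors' deposited table gave Tlr4 a log2 fold of 1.84 ± 0.45 in AT LSC over BM LSC (q = 0.000583). Against NBM, Tlr4 did not pass in AT LSC (0.48 ± 0.44, q = 0.522) or BL LSC (0.20 ± 0.39, q = 0.811), and Cd14 was called higher in both (log2 folds 3.26 ± 0.50 and 3.12 ± 0.37), in the authors' deposited tables. Fpr2, a receptor of the cathelicidin peptide, stood at 1.44 FPKM in BM LSC, 10.5 in BL LSC and 7.27 in AT LSC. Ager, the receptor for advanced glycation end products, was at 0.434 FPKM or less in every group, and the lipocalin receptors Slc22a17 and Lrp2 at 0.168 FPKM or less. Prtn3, proteinase 3, a partner of the human form of Cd177, was at 118 FPKM in NBM and 5.21 in BL LSC. That difference did not pass (log2 fold -4.50 ± 3.23, q = 0.369, authors' deposited table). Pecam1 was at 7.94 to 24.0 FPKM over the 5 groups. Of 13 tested partners, 0 were called in AT LSC against BL LSC in the authors' deposited Cuffdiff table (0 higher and 1 lower at an unadjusted p below 0.05), whereas 6 of 12 were higher in AT LSC and 8 of 13 in BL LSC against BM LSC.

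Other metalloproteinases and their inhibitors were mostly scarce. Mmp19 stood at 0.699 FPKM in NBM, 0.674 in BM LSC, 0.507 in SPL LSC, 8.32 in BL LSC and 4.73 in AT LSC, and so was above Mmp9 in both BL LSC and AT LSC. The authors' deposited table called Mmp19 higher than in BM LSC in BL LSC (log2 fold 3.62 ± 0.52, q = 3.10e-10) and in AT LSC (2.81 ± 0.52, q = 1.98e-06). Mmp2, Mmp3 and Mmp11, enzymes that stromal cells make, were at 0.692 to 1.37 FPKM in AT LSC and at 0.318 FPKM or less in each other group. Timp1, the inhibitor that pairs with Mmp9, stood at 1.14 FPKM in NBM, 0.215 in BM LSC, 0.0124 in SPL LSC, 0.0937 in BL LSC and 0.104 in AT LSC, and 0 of its tested comparisons passed (q = 0.697 to 0.941, authors' deposited tables). Timp3, an inhibitor bound to the extracellular matrix, stood at 0.502 FPKM in NBM, 2.58 in BM LSC, 5.99 in SPL LSC, 0.836 in BL LSC and 2.63 in AT LSC. The authors' deposited tables called Timp3 lower in BL LSC than in SPL LSC (log2 fold -2.84 ± 0.48, q = 1.16e-07) and BM LSC (-1.63 ± 0.39, q = 0.000520), and higher than in NBM in BM LSC, SPL LSC and AT LSC.

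Markers of other cells moved with some of these groups. In AT LSC against BM LSC, 6 of 7 tested stromal genes were higher in the authors' deposited table, and the summed level of the 8 stromal genes was 29.5 FPKM in AT LSC against 1.10 to 2.86 elsewhere, 21.0 FPKM of it from Dcn. Of 6 adipocyte genes the summed level was 0.693 FPKM in AT LSC and 0.0631 to 0.139 elsewhere, with Adipoq, Plin1, Lep and Retn below 0.1 FPKM in AT LSC. The macrophage list (9 genes) summed to 101 FPKM in NBM, 80.1 in BM LSC, 56.2 in SPL LSC, 296 in BL LSC and 153 in AT LSC, with Vsig4 below 0.1 FPKM in every group and at 0 in SPL LSC. Most of the sum in BL LSC came from Emr1 (122 FPKM), Cd68 (101) and Csf1r (54.2). Against BM LSC, 4 of the 8 tested macrophage genes were higher in AT LSC and 5 of 8 in BL LSC in the authors' deposited tables. Against NBM the same tables called 1 higher (Emr1) and 3 lower (Mrc1, C1qa and C1qb) in AT LSC. In BL LSC against NBM, 4 were higher and 2 lower (Mrc1 and C1qa). The monocyte list (6 genes) summed to 703 FPKM in NBM, 327 in BM LSC, 305 in SPL LSC, 694 in BL LSC and 402 in AT LSC, and 1 of 6 was higher in AT LSC and 4 of 6 in BL LSC than in BM LSC in the authors' deposited tables. The eosinophil genes went apart: Prg2 and Epx had their lowest level in BL LSC (3.08 and 0.493 FPKM). Ear1 and Ear2 were high in both AT LSC (85.7 and 66.4 FPKM) and BL LSC (70.0 and 53.0 FPKM). Those 2 groups did not differ beyond the error (q = 0.762 and 0.771, authors' deposited table). The part of these cells in the levels of the 10 genes was not tested.

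The neighbours of Camp, Ngp and Ltf on chromosome 9 were read as well. Of 28 other entries between the outer ends of Camp and Ltf, 17 were tested in AT LSC against BM LSC by the authors' deposited table (median log2 fold 0.05, 2 called lower), and 18 against BL LSC, with a median of -0.34, 1 called higher and 1 lower. Against SPL LSC, 2 of 18 were lower in AT LSC, and against NBM 1 of 18 was higher and 5 were lower, by the authors' deposited tables. The shares of all tested genes called lower in AT LSC were 15.5% against BM LSC, 17.9% against SPL LSC, 2.51% against BL LSC and 15.5% against NBM.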

How the data were processed

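RNA of 15 libraries, 3 in each of 5 groups, was sequenced. Per the labels, SMARTer chemistry (Clontech) for low input preceded Nextera XT library construction. The submitters' processing notes name Trimmomatic 0.32, Cufflinks 2.0.2, Cuffdiff and the build mm10. Neither aligner nor annotation is given in the sources used here. For each gene and group the authors deposited 1 pooled FPKM with a lower and an upper bound, and 1 estimated count. For each of 10 pairs of groups the authors deposited a log2 fold, a score (the Cuffdiff test statistic) and the p-value with its q-value. The standard error of a fold was taken as its size over that of the statistic, and equalled the one from bounds read as 2 standard deviations for the 10 genes. The deposited q-value was the Benjamini-Hochberg value over all 127922 tests of the 10 comparisons. A gene was called where it was tested and q was below 0.05.

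No test over libraries was computed. Log2 levels used a pseudocount of 1. Alternatives were centring of the folds, upper quartile and total count scaling, adjustment within a comparison, an FPKM minimum of 1, a log2 fold of at least 1, leaving out 105 merged entries and 152 whose FPKM differed between tables by more than 0.001 of its size, and a pseudocount of 0.1. Recalling was tested on simulated data. All 10 genes were named. Of each other list, up to 4 genes with the smallest q per comparison were named, partners without limit, and the 8 genes of nearest pattern among named single genes that are not predicted ones. Of 141 listed symbols, 136 were found. The genes and lists were chosen with earlier results of these data known. Analyses ran in Python 3.11.15 with pandas 2.3.3, numpy 2.4.6 and scipy 1.17.1. The depth, 8.96e+06 to 1.96e+07 estimated counts per group, is pooled over libraries.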

Additional observations from a re-analysis of the deposited data

Results flagged for a closer look

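Camp was called in opposite directions against normal bone marrow in 2 leukemic groups: higher in AT LSC (192 against 67.8 FPKM, log2 fold 1.50, q = 0.00999) and lower in BL LSC (22.8 FPKM, log2 fold -1.57, q = 0.00785) in the authors' deposited tables. The authors' own test of AT LSC against BL LSC gave a log2 fold of 3.07 (q = 5.33e-07). After centring on the median of tested genes, or with upper quartile scaling, the lower call in BL LSC did not pass (q = 0.0602 and 0.0612).

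Mmp8 was called higher than in normal bone marrow in BL LSC (36.5 against 9.05 FPKM, log2 fold 2.01, q = 1.44e-06) and lower in SPL LSC (2.94 FPKM, log2 fold -1.62, q = 0.00630) in the authors' deposited tables. The authors' test of BL LSC against SPL LSC gave a log2 fold of 3.64 (q = 1.54e-10). Both calls against NBM held under the 7 alternatives run on calls.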

How the results depend on the processing

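Of the 10 counts of called genes, those of AT LSC against BM LSC (8), AT LSC against SPL LSC (9) and BL LSC against NBM (3, or 2 after centring and with upper quartile scaling) stayed within 1.5 times under the 7 alternatives, as did BL LSC against BM LSC (3, up to 4) and AT LSC against NBM (5, up to 7). With adjustment within the comparison, the count fell from 8 to 4 in AT LSC against BL LSC (Mmp9, S100a8, S100a9 and Stfa2l1 lost), from 1 to 0 in SPL LSC against BM LSC (Mmp8 lost) and from 2 to 0 in BM LSC against NBM (Lcn2 and S100a8 lost). Centring of the folds also took the last count to 0, and a log2 fold of at least 1 took it to 1. Upper quartile scaling raised BL LSC against SPL LSC from 2 to 4 (Mmp9 and Stfa2l1 gained), and total count scaling raised SPL LSC against NBM from 2 to 5 (Camp, S100a9 and Cd177 gained). The cause was not tested. No call turned to the opposite direction. The same alternatives left 92 to 100 of the 100 single folds on their side of the threshold. SPL LSC had the fewest estimated counts, and Stfa2l1 rests on 10.1 of them there. No paired analysis was possible because the deposited columns hold 1 pooled value per group, and no library could be left out for the same reason.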
